A study of Mus musculus with 6 samples.

Results

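The axon guidance ligands and receptors are 68 of the 55471 genes in the deposited count tables. They were selected by gene name alone as the ephrins and Eph receptors (22 genes), the semaphorins with plexins and neuropilins (31 genes), the Slits with Robo1 to Robo3 (6 genes), and the netrins with Dcc and the Unc5 receptors (9 genes). The selection rule uses names and no measured value. By role, 35 were ligands and 33 were receptors, and all 68 were found in the annotation of mouse assembly GRCm38.

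The rostral tip of the telencephalic primordium was dissected from mouse embryos at E11.5 (embryonic day) and its RNA sequenced, in 3 control and 3 Rx-Dicer samples. Controls carried floxed Dicer alleles without Cre (genotype Dicer F/F, labelled WT), and Rx-Dicer embryos carried the same floxed alleles with Rx-Cre (RxCre-Dicer F/F). Dicer is the enzyme that cuts miRNA precursors into mature miRNAs, and in this line Cre follows the regulatory sequences of Rax, a transcription factor of the early forebrain and eye field. The floxed alleles were kept on C57BL/6 and the Rx3-Cre line on CD1, so the embryos were of mixed background, and cells that Rx-Cre does not reach keep Dicer. Whether a library held 1 embryo or several is not stated, so p-values measure only the spread between these samples.

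Guidance ligands tell a growing axon or a migrating cell where to go. Netrins, Slits and class 3 semaphorins are secreted, whereas ephrins and most other semaphorins sit on the membrane and act on touch. Netrins attract through Dcc and repel through Unc5 receptors, Slits repel through Robo1 and Robo2, semaphorins signal through plexins with neuropilins as co-receptors of most class 3 members, and ephrins and Ephs signal in both directions between neighbouring cells. At this age most telencephalic cells are still neuroepithelial progenitors, and many of the same molecules are known to hold cells together or apart and to shape vessels.

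The libraries held between 34471501 and 48373468 counts on genes, and the 2 deposited files of a sample, whose origin is not stated, were treated as repeat runs and summed. Dicer1 itself did not separate the genotypes. Its normalised read counts were 6355, 7070 and 6270 in controls, against 4777, 7002 and 4644 in Rx-Dicer samples, a log2 fold change of -0.26 ± 0.17 (SE, n = 3 per genotype, DESeq2 adjusted p = 0.567). The library labelled Rx-Dicer 2 had as much as the controls, although exons outside the floxed segment also give counts. Summed ventral telencephalon markers were highest in control 3 (14192) and Rx-Dicer 2 (20993), against 6079 to 7309 in the other libraries. Of these 10 markers, Lhx6 was called higher (log2 fold change 1.61 ± 0.34, SE, DESeq2 adjusted p = 0.00044). Nkx2-1, also on the telencephalon list, did not exceed 191.6 in any control, whereas its lowest Rx-Dicer value was 681.8. Its log2 fold change was 3.97 ± 1.26 (SE), and it was not called (DESeq2 adjusted p = 0.055). The other ventral markers overlapped between genotypes. The telencephalon sums overlapped, at 37329 to 46260 for controls and 38552 to 45379 for Rx-Dicer samples. The mesenchyme sums overlapped too (34697 to 77483 and 54522 to 70080, with Foxd1 called higher). No neuron, endothelial or olfactory marker was called by DESeq2 or edgeR, where DESeq2 gave 2, 0 and 1 of them an unadjusted p under 0.05. Summed hypothalamus and optic field markers did not overlap, at 1667 to 2058 in controls and 2883 to 3543 in Rx-Dicer samples. Vax1, Otp and Fezf1 were called higher by DESeq2. By edgeR no gene of these marker lists was called, Lhx6 and Foxd1 included.

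Levels were first compared between genes as normalised counts per kilobase of exon, averaged over the 6 samples. They measure mRNA of the whole dissected piece, and protein and signalling were not measured. The B ephrins, membrane-spanning ligands of EphB receptors, were at the top. Efnb1 had the highest level of all 68 genes (4804 per kb), followed by Efnb2 (2063), the plexin Plxnb2 (1533) and Efnb3 (1163). Only these 4 genes reached 1000 per kb, whereas 38 genes lay between 100 and 1000, 19 between 10 and 100, and 7 below 10.

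**Figure D1:**
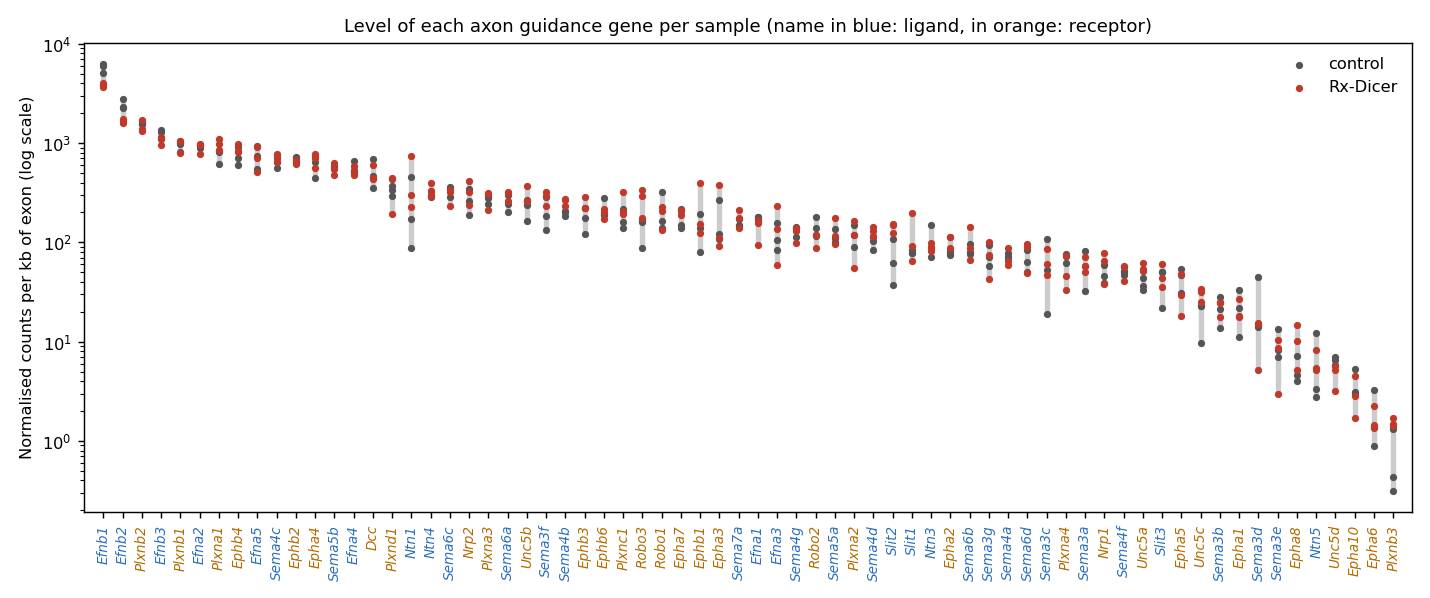
Normalised read counts per kilobase of exon (log scale) of all 68 axon guidance genes in the 3 control (grey) and 3 Rx-Dicer (red) samples, ordered by mean level, with ligand names in blue and receptor names in orange; grey lines span the lowest to the highest sample. Efnb1 lies above every other gene in every sample, and the 7 genes at the right have means below 10 per kb.

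The first place was clear of the spread between samples, since the lowest Efnb1 value (3641 per kb in Rx-Dicer 1) was above the highest Efnb2 value (2789 per kb in control 1). Within a sample Efnb1 was 1.81 to 2.70 times as high per kb as Efnb2. The next neighbours did not separate. Efnb2 ranged from 1582 to 2789 per kb and Plxnb2 from 1330 to 1715, and Plxnb1 (mean 944 per kb), Efna2 (923), Plxna1 (864) and Ephb4 (809) overlapped one another.

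The most abundant member of each family and role was taken from the same averages, which include the Rx-Dicer samples. Among receptors these were Ephb4 for the Ephs, Plxnb2 (1533 per kb) for plexins and neuropilins, Robo3 (203) for the Robos and Dcc (499) for the netrin receptors. Among ligands they were Efnb1, Sema4c (676), Slit2 (105) and Ntn1 (328). The first places of Robo3, Slit2 and Ntn1 hold for the average of both genotypes and not for controls alone. In controls Robo3 had 86.9, 166 and 159 per kb, and Robo1 had 162, 139 and 323. Slit2 had 108, 61.4 and 37.3 there, and Slit1 had 84.0, 77.8 and 78.1. Ntn1 had 86.8, 172 and 450, and Ntn4 had 287, 298 and 327. Over all 6 samples Robo3 and Robo1 (198 per kb) overlapped, as did Slit2 and Slit1 (98.9). Ntn1 and Ntn4 (321 per kb, and higher than Ntn1 in 3 of the 6 samples) overlapped too. The Slit2 to Slit1 ratio per kb ran from 0.478 in control 3 to 2.30 in Rx-Dicer 3. These orders also depend on the exon length used, which merges all annotated exons of a gene. It was 25433 bases for Slit2 against 5921 for Slit1, and 16511 for Robo1 against 6848 for Robo3. Before division by length the mean control counts were 1754 for Slit2 against 473 for Slit1, and 3436 for Robo1 against 940 for Robo3. At the low end stood Plxnb3 (1.11 per kb), Epha6 (1.77), Epha10 (3.43), Unc5d (5.57), Ntn5 (6.20), Epha8 (7.63) and Sema3e (8.45). Plxnb3 and Epha6 had too few counts for an adjusted p, which left 66 genes for the comparison of genotypes.

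The genotypes were then compared for each gene with DESeq2, fitted on the whole table, and the call required an adjusted p under 0.05 and a log2 fold change above 0.32 in size. Of the 66 genes, 3 were called (4.55%), against 2.93% of all 17128 genes tested and 3.3% of the protein-coding genes among them. Efnb1 and Efnb2 fell, beside a background of 1.18% of genes called lower, and Robo3 rose, beside 1.75% called higher. By edgeR's quasi-likelihood test none of the axon guidance genes was called, 11 had an unadjusted p under 0.05, and the lowest edgeR adjusted p was 0.102 for Efnb1. That test called 0.0446% of all genes it examined (8 genes).

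Without adjustment, 15 of the 66 genes (22.7%) had a DESeq2 p under 0.05, beside 13.1% of all genes and 14.4% of protein-coding genes. Of these, 12 were higher and 3 lower in Rx-Dicer samples. In 12 genes (18.2%) no Rx-Dicer value overlapped the controls, close to the 19.3% seen among all genes. Both conditions held for 10 genes (15.2%), beside 10.2% of all genes and 11.15% of protein-coding genes. The median log2 fold change of the 66 genes was 0.09, with 39 above 0, and that of all genes tested was -0.0009. Leaving out Rx-Dicer replicate 1 turned this median to -0.02. The median SE of a gene was 0.22 on the log2 scale, and for 51 genes the 95% interval of the log2 fold change included 0.

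**Figure D2:**
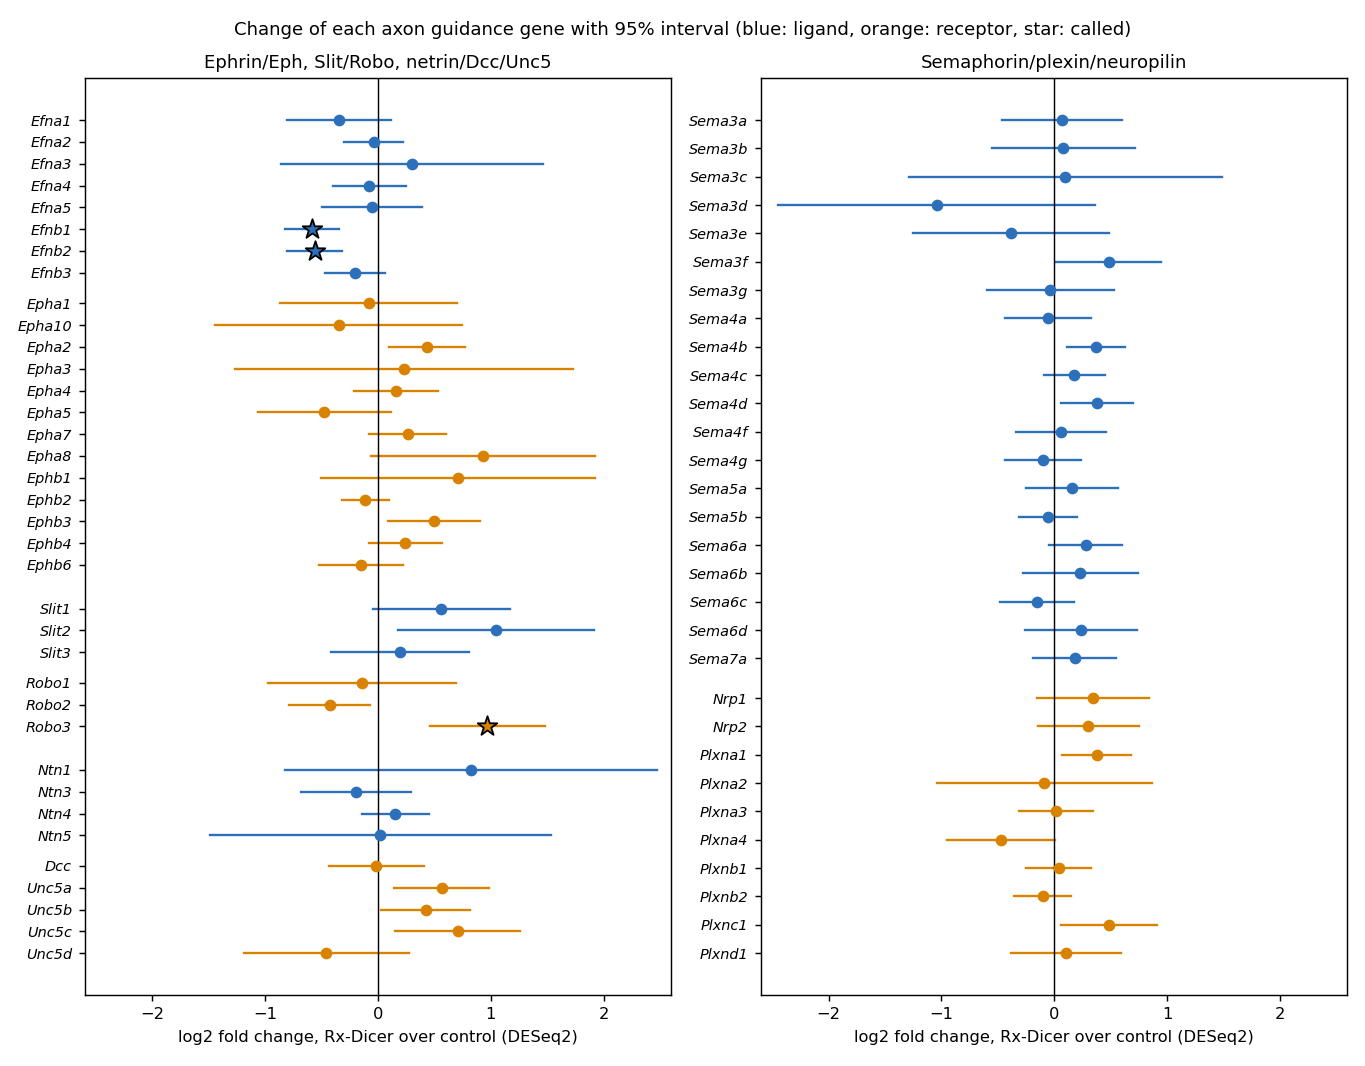
DESeq2 log2 fold change of Rx-Dicer over control (x axis) with its 95% interval for each of the 66 axon guidance genes with an adjusted p, by family; blue marks ligands, orange receptors, and a star a called gene. The 3 stars are Efnb1 and Efnb2, left of 0, and Robo3, right of 0.

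Efnb1 encodes ephrin-B1, an X-linked ligand of EphB receptors that also signals back into the cell that carries it. The gene (ENSMUSG00000031217, GRCm38, chromosome X, 99136130 to 99148991, plus strand) had 17385, 21588 and 20759 normalised counts in controls and 12568, 13342 and 13864 in Rx-Dicer samples. All Rx-Dicer values were below all controls, and they were closer together than the controls. The mean fell from 19911 ± 2226 to 13258 ± 652 (SD, n = 3 per genotype), which is 0.666-fold (log2 fold change -0.59 ± 0.12, SE, DESeq2 adjusted p = 0.000434).

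Efnb2 encodes ephrin-B2, which binds Ephb4 on vessels as well as EphB and Epha4 receptors in the nervous system. It (ENSMUSG00000001300, GRCm38, chromosome 8, 8617434 to 8661242, minus strand) had 19119, 15868 and 15605 normalised counts in controls and 10845, 11929 and 11502 in Rx-Dicer samples. Again the genotypes did not overlap and the Rx-Dicer samples had the smaller spread. The mean fell from 16864 ± 1957 to 11425 ± 546 (SD, n = 3 per genotype), which is 0.678-fold (log2 fold change -0.56 ± 0.12, SE, DESeq2 adjusted p = 0.000959, edgeR adjusted p = 0.122). Efnb1 and Efnb2 kept their calls in each DESeq2 fit that left out 1 sample.

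Efnb3, the third B ephrin and a midline repellent of corticospinal axons, was not called. It had 4277, 3493 and 4136 normalised counts in controls and 3574, 3685 and 3048 in Rx-Dicer samples, which overlapped, with a log2 fold change of -0.21 (95% interval -0.47 to 0.06). The A ephrins, which are tethered to the membrane by a lipid anchor, gave log2 fold changes of -0.35 (Efna1), -0.04 (Efna2), 0.30 (Efna3), -0.08 (Efna4) and -0.06 (Efna5), none called. Efna1 had no overlap between genotypes (315 to 333 normalised counts in controls and 170 to 306 in Rx-Dicer samples), but its unadjusted DESeq2 p was 0.140. Thus 2 of 8 ephrins were called lower (25%, beside 1.18% of all genes), and the median log2 fold change of the 8 was -0.14. The Rx-Dicer samples also had lower counts of the progenitor genes Pax6 and Fabp7 and of Eomes, a marker of intermediate progenitors. All 3 were called lower by DESeq2 and none by edgeR (edgeR adjusted p = 0.144, 0.269 and 0.185). The summed progenitor list overlapped between genotypes, at 186179 to 196630 in controls and 163684 to 193563 in Rx-Dicer samples. Of its 9 genes, 4 had a log2 fold change above 0. Among these Vim was higher without overlap, at 57036 to 64997 in controls and 65193 to 73504 in Rx-Dicer samples, and was not called. Eomes was on the dorsal telencephalon list and not on the progenitor list. In bulk tissue fewer cells of a type and less RNA per cell cannot be told apart, and the part of cell composition in the fall of the B ephrins was not tested.

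None of the 13 Eph receptors tested was called by DESeq2 or edgeR. By each test 2 had an unadjusted p under 0.05 (15.4%, beside 13.1% of all genes by DESeq2). The median log2 fold change of the 13 was 0.23, with 8 above 0. Epha2, an A-class receptor of epithelia and early neural tissue (ENSMUSG00000006445), was the only one whose genotypes did not overlap. It had 351, 362 and 381 normalised counts in controls and 531, 532 and 412 in Rx-Dicer samples (log2 fold change 0.43 ± 0.17, SE, DESeq2 adjusted p = 0.179). It was called when Rx-Dicer replicate 3, its lowest Rx-Dicer value, was left out (DESeq2 adjusted p = 0.0286).

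Ephb4, the receptor of ephrin-B2 on venous endothelium and the most abundant Eph here, had 2798, 3311 and 4207 normalised counts in controls and 4522, 3776 and 3905 in Rx-Dicer samples. These overlapped, with a log2 fold change of 0.24 (95% interval -0.08 to 0.56). The neural receptors of B ephrins gave no call in either direction. Ephb2 was nearly level, with a log2 fold change of -0.11 ± 0.11 (SE), Epha4, which binds both classes of ephrin, gave 0.16 ± 0.19, and Ephb3 gave 0.49 ± 0.21, with values that overlapped. Hence the fall of Efnb1 and Efnb2 came with no called change in any of their receptors.

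**Figure D3:**
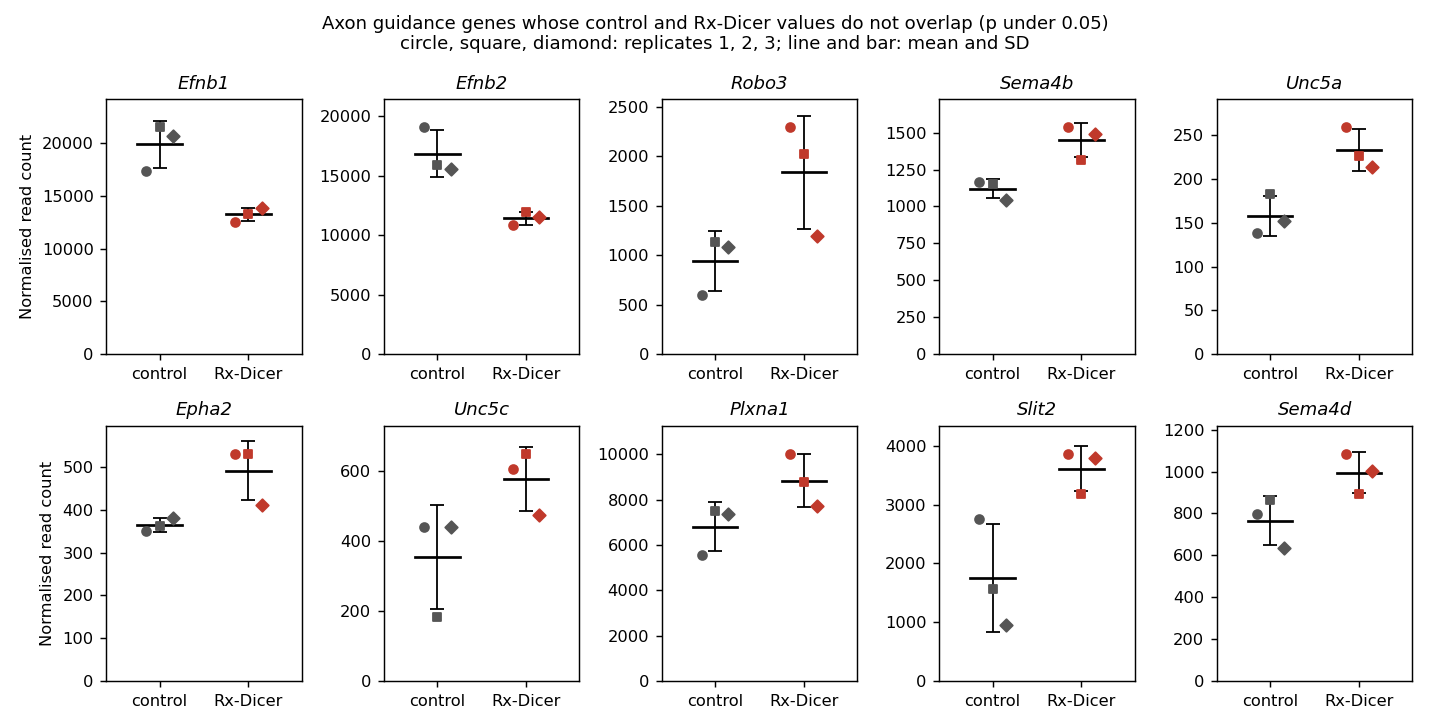
Normalised read counts (y axis, from 0) of the 10 axon guidance genes with an unadjusted DESeq2 p under 0.05 and no overlap between genotypes; circles, squares and diamonds are replicates 1, 2 and 3, and lines with bars are means ± SD. Efnb1 and Efnb2 are lower in all 3 Rx-Dicer samples, and in Robo3 the lowest Rx-Dicer sample (1197) lies just above the highest control (1137).

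Robo3, the divergent Robo receptor that lets commissural axons cross the midline and does not bind Slits in mammals, was the only receptor called. It (ENSMUSG00000032128, GRCm38, chromosome 9, 37415669 to 37433246, minus strand) had 595, 1137 and 1088 normalised counts in controls and 2299, 2019 and 1197 in Rx-Dicer samples. The genotypes did not overlap, but the gap was narrow and rested on 2 high Rx-Dicer libraries and 1 low control. The mean rose from 939.8 ± 299.7 to 1838 ± 573 (SD, n = 3 per genotype), which is 1.96-fold (log2 fold change 0.97 ± 0.26, SE, DESeq2 adjusted p = 0.0142, edgeR adjusted p = 0.240). The call was lost without Rx-Dicer replicate 1 (DESeq2 adjusted p = 0.169), without Rx-Dicer replicate 2 (0.131) and without control replicate 1 (0.117).

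The canonical Slit receptors gave no call. Robo1 had 2681, 2289 and 5339 normalised counts in controls and 3404, 3741 and 2205 in Rx-Dicer samples, a log2 fold change of -0.14 with a wide 95% interval of -0.97 to 0.69. Robo2 had 3052, 1986 and 2392 in controls, against 2025, 1486 and 2007 in Rx-Dicer samples (log2 fold change -0.43 ± 0.18, SE, DESeq2 adjusted p = 0.237). Its genotypes overlapped, and it was the third member with an unadjusted p under 0.05 on the lower side. The 3 Robo receptors thus showed no common direction.

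Slit2, a secreted midline repellent (ENSMUSG00000031558, GRCm38, chromosome 5, 47983138 to 48307733, plus strand), had the largest positive log2 fold change of the tested members. It had 2751, 1561 and 949.7 normalised counts in controls and 3870, 3180 and 3793 in Rx-Dicer samples. All Rx-Dicer values were above all controls, but the controls spanned 2.90-fold among themselves. The means of 1754 ± 916 and 3614 ± 378 (SD, n = 3 per genotype) gave a log2 fold change of 1.04 ± 0.44 (SE) that was not called (DESeq2 adjusted p = 0.229). It was called without control replicate 1, the highest control (log2 fold change 1.52, DESeq2 adjusted p = 6.7e-09). Slit1 gave a log2 fold change of 0.56, carried by Rx-Dicer 1 (1166 normalised counts against 383 to 545 in the other 5 samples), and Slit3 gave 0.19. The hypothalamus and optic field markers were higher in the same 3 Rx-Dicer samples, and their part in the values of Slit2 and Robo3 was not tested.

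The netrin system gave no call among 9 genes by DESeq2 or edgeR. By DESeq2 3 had an unadjusted p under 0.05 (33.3%, beside 13.1% of all genes), and 1 had one by edgeR. Ntn1, the secreted attractant made by the floor plate and ventral forebrain, varied widely within genotypes. It had 545, 1082 and 2827 normalised counts in controls and 1868, 4613 and 1416 in Rx-Dicer samples, a 5.19-fold and a 3.26-fold range. The log2 fold change of 0.83 therefore had a 95% interval of -0.82 to 2.48. Dcc, its attractive receptor, was highest in control 1 (9017 normalised counts) and lowest in control 3 (4660), with 7956, 5742 and 5897 in Rx-Dicer samples. Its log2 fold change was -0.01 (95% interval -0.44 to 0.41).

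Of the 4 repulsive netrin receptors, a small group, 3 had an unadjusted DESeq2 p under 0.05 (1 by edgeR), beside 13.1% of all genes by DESeq2. All 3 were higher in Rx-Dicer samples, but none was called. Unc5a had 138, 183 and 152 normalised counts in controls and 260, 226 and 214 in Rx-Dicer samples, with no overlap (log2 fold change 0.56 ± 0.22, SE, DESeq2 adjusted p = 0.151). Unc5c had 442, 183 and 439.6 in controls, against 607, 651 and 476 in Rx-Dicer samples, again with no overlap (log2 fold change 0.70 ± 0.28, SE, DESeq2 adjusted p = 0.186). Unc5b, which also acts in vessels, overlapped between genotypes, since its highest control (1659 normalised counts) exceeded Rx-Dicer 2 and 3 (1636 and 1648). Unc5d went the other way without overlap, with 54.0 to 64.8 normalised counts in controls and 29.5 to 52.3 in Rx-Dicer samples (log2 fold change -0.46, DESeq2 adjusted p = 0.715).

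The semaphorin system was the largest family and gave no call among the 30 genes tested by DESeq2 or edgeR. By DESeq2 5 had an unadjusted p under 0.05 (16.7%, beside 13.1% of all genes), and 3 had one by edgeR. The median log2 fold change of the 30 genes was 0.09. Among the 20 ligands, 3 had an unadjusted DESeq2 p under 0.05 (15%, beside the same 13.1%). Sema4b, a transmembrane class 4 semaphorin, had 1168, 1151 and 1045 normalised counts in controls and 1540, 1318 and 1492 in Rx-Dicer samples. These did not overlap, and the log2 fold change was 0.37 ± 0.13 (SE, DESeq2 adjusted p = 0.101). Sema4b was called without Rx-Dicer replicate 2 (DESeq2 adjusted p = 0.0113) and when low-count genes were removed first (0.0497).

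Sema4d, a class 4 ligand of Plxnb1 that acts in immune and nervous tissue, had 795, 865 and 636 normalised counts in controls and 1086, 893 and 1004 in Rx-Dicer samples (log2 fold change 0.38 ± 0.16, SE, DESeq2 adjusted p = 0.237). The summed microglia markers were 1375 to 1642 in controls, against 5246, 1541 and 3285 in Rx-Dicer samples. Csf1r and Cx3cr1 were called higher by DESeq2 and not by edgeR (edgeR adjusted p = 0.271 and 0.236). Sema4d was highest in Rx-Dicer 1 and lowest of its genotype in Rx-Dicer 2, which is the order of those markers among Rx-Dicer samples, whereas among controls it was lowest in control 3 (marker sum 1642) and highest in control 2 (1375). The part of these cells in its values was not tested. Sema4c, the most abundant semaphorin and a ligand of Plxnb2, had 2555, 2973 and 3216 in controls, against 3532, 3408 and 2956 in Rx-Dicer samples (log2 fold change 0.18, 95% interval -0.09 to 0.45).

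The secreted class 3 semaphorins repel axons and guide neural crest and vessels. Among the 7 members Sema3f had a log2 fold change of 0.48 ± 0.24 (SE, DESeq2 adjusted p = 0.345) with overlapping values, and Sema3a gave 0.07 ± 0.27. Sema3d had the lowest log2 fold change of all 66 genes, -1.04, which rested on 1 high control (384 normalised counts in control 3, against 121 and 127) and 1 low Rx-Dicer sample (44.8 in Rx-Dicer 2, against 133 and 129). Its 95% interval was -2.44 to 0.36.

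Plexins are the signalling receptors of semaphorins, and neuropilins bind the class 3 ligands beside them. Plxna1, a co-receptor with neuropilins, had 5556, 7488 and 7377 normalised counts in controls and 10034, 8780 and 7701 in Rx-Dicer samples. The groups did not overlap (log2 fold change 0.38 ± 0.16, SE, DESeq2 adjusted p = 0.205), and it was not called. Plxnb2, which acts in neural tube closure and neuroblast migration, had 11907, 12780 and 12066 in controls, against 13236, 10733 and 10265 in Rx-Dicer samples (log2 fold change -0.10, 95% interval -0.36 to 0.15). Plxnc1, the receptor of Sema7a, gave 0.48 ± 0.22 (SE, DESeq2 adjusted p = 0.269), with its highest value in Rx-Dicer 2 (2683 normalised counts). Nrp1 and Nrp2 gave 0.34 and 0.30, and both overlapped.

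Sample by sample, the guidance genes did not move as a block with genotype. The median log2 ratio to the control mean over the 66 genes was -0.02, -0.08 and 0.10 in the controls and 0.26, 0.20 and -0.10 in the Rx-Dicer samples. By this median Rx-Dicer 1 and 2 were above all controls and Rx-Dicer 3 was below them. Rx-Dicer 3 was the lowest of its genotype for 42 of the 66 genes, and Rx-Dicer 1 was the highest for 40. Rx-Dicer 3 also had the lowest summed endothelial markers (5345, against 8681 to 11827 in the other libraries). The vessel receptors Plxnd1 (1409 normalised counts, against 2133 to 3227 elsewhere) and Nrp1 (375, against 379 to 770) and the vessel ligand Sema3g (196, against 260 to 453) were lowest in that same library, Nrp1 only narrowly. Other members known from vessels were not lowest there: Ephb4 (3905 normalised counts), Unc5b (1648) and Efnb2 (11502) in Rx-Dicer 3 were above control 1, control 3 and Rx-Dicer 1, respectively (2798, 1031 and 10845). The part of vessel content in these values was not tested.

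**Figure D4:**
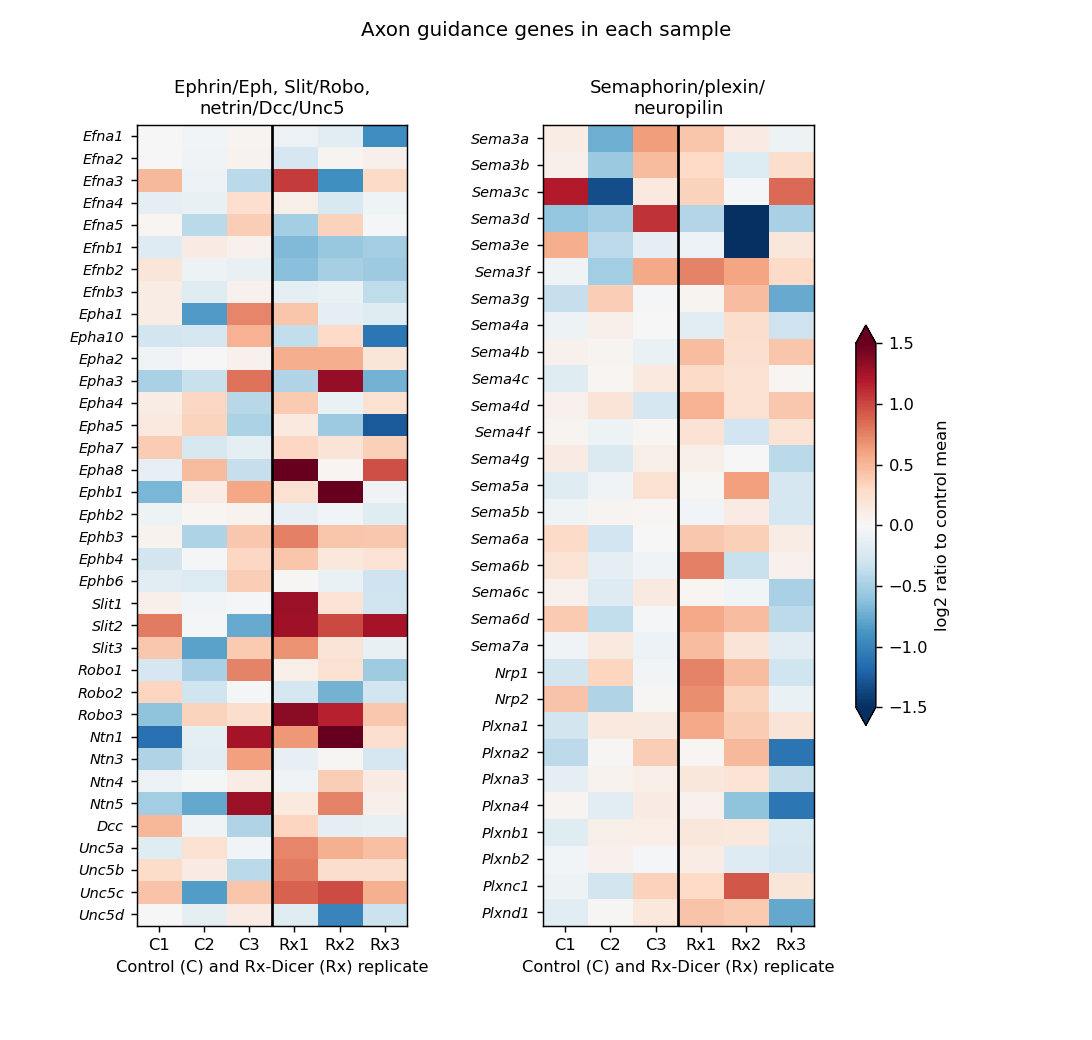
Log2 ratio of each sample to the control mean (colour, red higher and blue lower) for the 66 axon guidance genes, with controls (C1 to C3) left and Rx-Dicer samples (Rx1 to Rx3) right of the line. Efnb1 and Efnb2 are blue in all 3 Rx-Dicer columns, Slit2 is red in all 3, and 42 of the 66 genes have their lowest Rx-Dicer value in Rx3.

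Some members varied strongly among libraries of a genotype. The highest value was at least 2 times the lowest within controls for 15 of 66 genes, within Rx-Dicer samples for 16, and within both for 4, namely Ntn1, Epha3, Ephb1 and Sema3d. Epha3, a receptor of A ephrins, had 945, 1050 and 2319 normalised counts in controls and 962, 3298 and 805 in Rx-Dicer samples. Ephb1 had 562, 975 and 1347 in controls, against 1061, 2779 and 875 in Rx-Dicer samples. Both, like Ntn1, were highest in control 3 and in Rx-Dicer 2, the same 2 libraries with the highest summed ventral markers. Summed dorsal telencephalon markers were lowest in those 2 libraries of each genotype (35095 in control 3 and 29598 in Rx-Dicer 2, against 44348 to 59222 in the others). The part of the dissected region in these values was not tested.

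**Figure D5:**
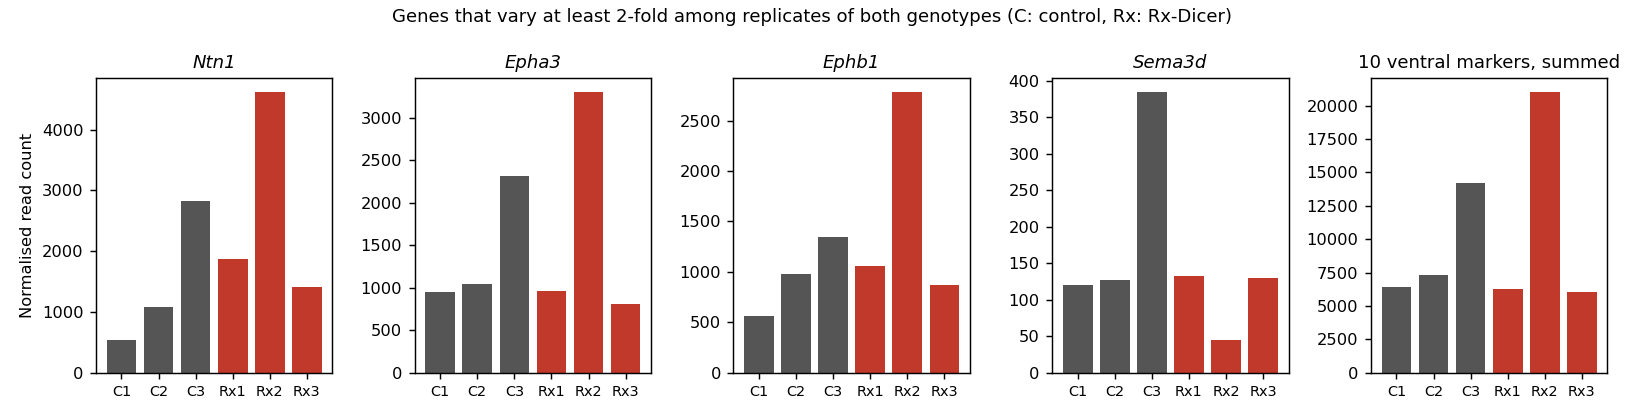
Normalised read counts (bars from 0) of the 4 genes that varied at least 2-fold within both genotypes, and of 10 ventral telencephalon markers summed, in controls (grey, C1 to C3) and Rx-Dicer samples (red, Rx1 to Rx3). Ntn1, Epha3, Ephb1 and the marker sum are highest in C3 and Rx2 of their genotypes, and Sema3d is highest in C3 and lowest in Rx2.

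Genes around the same pathways were examined from 2 further lists. The first held 22 guidance genes outside the name rule, such as L1 family adhesion molecules, contactins and the netrin-G genes Ntng1 and Ntng2. Of these, 2 were called by DESeq2 (9.09%, beside 2.93% of all genes). Chl1, an L1 family adhesion molecule, rose with 166, 74.3 and 111 normalised counts in controls and 423, 257 and 140 in Rx-Dicer samples (log2 fold change 1.23 ± 0.38, SE, DESeq2 adjusted p = 0.0438), although Rx-Dicer 3 lay below control 1. Gpc1, a heparan sulfate proteoglycan that binds Slits, fell with 16940, 23011 and 19271 in controls, against 15445, 12716 and 14656 in Rx-Dicer samples (log2 fold change -0.47 ± 0.14, SE, DESeq2 adjusted p = 0.0446), with no overlap. Neither was called by edgeR. Chl1 lost its DESeq2 call without Rx-Dicer replicate 1 or 2 or without control replicate 2 or 3, and Gpc1 without Rx-Dicer replicate 2 or 3 or without control replicate 2 or 3. None of 57 tested transducers, the intracellular signalling genes that act below these receptors, was called by DESeq2 or by edgeR's quasi-likelihood test. By DESeq2 3 of them had an unadjusted p under 0.05 (5.26%, beside 13.1% of all genes), and 6 had one by edgeR. The median log2 fold change was 0.12 for the first list and 0.05 for the second.

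Because Dicer makes mature miRNAs, the 3′ UTRs of the guidance genes were searched for words that pair with miRNA seeds (bases 2 to 8). The mature sequences below are from RefSeq, 5′ to 3′, with the seed in capitals, and show the let-7 family, which the study centres on, and miR-218, whose hairpins lie inside guidance genes.

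let-7a-5p: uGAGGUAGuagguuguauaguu

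miR-218-5p: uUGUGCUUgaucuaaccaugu

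Both were matched on the transcript strand of the longest annotated 3′ UTR, which could be read for 66 guidance genes and for 14054 protein-coding genes tested. The let-7 word CTACCTC, which pairs with the seed shared by 11 mature miRNAs of the reference set, occurred in 14 of the 66 genes (21.2%), beside 10.8% of protein-coding genes. Guidance 3′ UTRs were longer (median 1681 bases, against 1217), and per kb the word occurred 0.0935 times, against 0.0729 over all protein-coding genes. In 7 of the 14 genes the word was followed by A. The 14 genes had a median log2 fold change of 0.14, with 10 above 0, against 0.07 for the other members, and none of the 14 was called. A match is a description of the sequence and not evidence of a site in use.

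The windows below show the let-7 word in capitals, in the 3′ UTR sequence. They cover the 4 of these genes that met the rule for genes described in full, given in the processing section. All 4 had a log2 fold change above 0. Plxna4 (log2 fold change -0.47), Ephb2 (-0.11), Sema4g (-0.10) and Plxna2 (-0.09) also held the word and are not shown. Windows are on the GRCm38 strand of the gene (the word at chr11:68212758-68212764, minus, for Ntn1, chr7:80225397-80225403, plus, for Sema4b, chr1:36549459-36549465, minus, for Sema4c, and chr13:55005283-55005289, plus, for Unc5a).

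Ntn1: aggacaagacatagCTACCTCa

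Sema4b: tcagtggaggtcagCTACCTCt

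Sema4c: tgcacaggcaccagCTACCTCa

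Unc5a: gtatgtgtgtgatgCTACCTCt

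None of the 3 called genes held the let-7 word. For the other seeds searched, the miR-9-5p word ACCAAAG occurred in 11 guidance genes (16.7%, beside 14.3%), the miR-17-5p word GCACTTT in 16 (24.2%, beside 14.6%) and the miR-92a-3p word GTGCAAT in 4 (6.06%, beside 7.76%). Per kb these words occurred 0.0868, 0.127 and 0.0267 times in guidance genes, against 0.0990, 0.101 and 0.0505 over all protein-coding genes, so the miR-9 share was higher but its rate per kb lower. Efnb1 held the miR-17 word. The hairpin Mir218-1 lies within Slit2 (chromosome 5, 48223942 to 48224051) and Mir218-2 within Slit3 (chromosome 11, 35616816 to 35616925), both on the strand of the host gene, and the miR-218 search was added after the values of these genes had been seen. The miR-218 word AAGCACA occurred in 20 guidance genes (30.3%, beside 16.0%), at 0.180 per kb against 0.114. These 20 genes had a median log2 fold change of -0.01, with 10 above 0, against 0.10 for the others. The word was present in Efnb1, Efnb2 and Robo3, which moved in different directions, and in Slit2, Robo1 and Robo2. The windows of the 3 called genes are given with the word in capitals (chrX:99148532-99148538, plus, for Efnb1, chr8:8619295-8619301, minus, for Efnb2, and chr9:37416245-37416251, minus, for Robo3).

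Efnb1: tgggttctagtacaAAGCACAc

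Efnb2: tccatgtcaaagcaAAGCACAc

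Robo3: cttgtgactcactgAAGCACAc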

How the data were processed

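RNA-seq was from 3 control and 3 Rx-Dicer samples. The deposited values are raw read counts per gene: per the study's methods and the submitters' processing notes, the authors trimmed reads with Trim Galore 0.6.5, aligned them to GRCm38.p6 with HISAT2 and counted them per Ensembl gene with HTSeq 0.12.4 in union mode on the reverse strand, so reads shared by genes were dropped. Each sample had 2 files, which differed by a chi-square per degree of freedom of 1.11 to 1.47, against 20.5 to 29.6 between samples of a genotype, and were treated as repeat runs and summed. Between 8.15 and 13.2% of reads were tallied to no gene and left out. A floor set at 3 counts was 0.0620 to 0.0870 CPM across libraries (counting error only).

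Genotypes were compared with the DESeq2 1.42.0 Wald test (R 4.3.3, median-of-ratios size factors, unshrunken fold changes, Benjamini-Hochberg adjustment with independent filtering) and with edgeR 4.0.16 (quasi-likelihood, TMM, at least 10 counts in at least 3 samples), both also tested on simulated data. Normalised counts are counts divided by the DESeq2 size factor, per kb of merged GENCODE M21 exons where genes are compared. No member shared over 1.74% of its exon bases with another gene of its strand. Genes described in full were those called, those with an unadjusted p under 0.05 and no overlap, and the most abundant of each family and role; other members were named where a family was described, after their values had been seen. The members, lists and markers were chosen with earlier results of these data known. Shared replicate numbers came from the titles; their correlations across genes were 0.18, 0.02 and -0.15, so they were not taken as pairs. Alternatives were other scalings, filters, thresholds and tests, each file of a sample alone, the replicate block, and leaving out each sample.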

Additional observations from a re-analysis of the deposited data

How the results depend on the processing

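Of 240 values of the named genes under 16 alternatives, 228 kept their side of the threshold, 7 lost a call and 5 gained one. Most of these values, 192, belonged to genes not called, of which 187 stayed so. The 3 called genes kept 41 of 48, and Robo3 alone lost its call in 5 of 16. Dropping the minimum fold change could not remove a call. No called gene changed sign. Dcc, which was not called and lay near 0 (log2 fold change -0.01), was above 0 in 5 alternatives (0.0048 to 0.28), and no other named gene changed sign. With edgeR's quasi-likelihood test 0 axon guidance genes, 8 of all genes and 0 of the 2 further lists were called. Leaving out 1 sample gave 3 to 5 axon guidance genes (5, with Ephb3 and Sema3f, without control replicate 3), 285 (without control replicate 2) to 637 of all genes (309 without Rx-Dicer replicate 3), and 0 (without control replicate 2 or 3) to 5 genes (without Rx-Dicer replicate 1) of the further lists. Of all genes 322 were called without independent filtering and 314 with the replicate block. Of the further lists 1 gene was called with the first file of each sample alone, 1 with the second alone and 1 after removal of low-count genes, and 0 without independent filtering. With the replicate block 3 axon guidance genes were called, Efnb1, Efnb2 and Slit2 (log2 fold change 1.17, DESeq2 adjusted p = 0.000667), while Robo3 lost its call (adjusted p = 0.501). The median log2 fold change of the members was -0.017 to 0.19 when 1 sample was left out, and below 0 in that range only without Rx-Dicer replicate 1. The causes were not tested. With total-count scaling the median of all genes was 0.02 on the log2 scale. The median 95% interval of a member's log2 fold change was 0.87 wide, which holds counting error and the spread between samples together.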
